A study of Mus musculus with 6 samples.

Results

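The 10 genes described here carry out the presentation of peptides on MHC class I and the switch from the standard proteasome to the immunoproteasome: H2-K1, H2-D1, B2m, Tap1, Tap2, Tapbp, Psmb8, Psmb9, Psmb10 and Nlrc5. They were taken from the deposited table by gene symbol, 10 of 45038 genes, and all 10 were found and passed the filter that left 10168 genes for testing. RNA sequencing had been done on C57BL/6 mice carrying Tie2-Cre and Rosa-LSL-tdTomato, aged 6 to 8 weeks at surgery per the labels' protocol. The MI group held 3 libraries of infarct tissue, 3 weeks after ligation of the left anterior descending coronary artery. The Normal group held 3 libraries of normal left ventricle, whose labels say that these were without the surgery. In both groups tdTomato+F4/80- cells were sorted, so every library shares the transgenes and the gate. Tie2 drives Cre in endothelial cells and also in part of the blood lineage, and a lineage mark stays on whatever the cell later becomes. In each group the libraries are numbered Ms1535, Ms1537 and Ms1608, and wherever 3 values are given for a group they stand in that order. Nothing in the labels says what the 3 libraries of a group share or how they were replicated, so a p-value here weighs a difference against the spread of these libraries, which may be technical.

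Nearly all nucleated cells show MHC class I on their surface. Proteasomes cut cytosolic proteins, the TAP transporter moves the peptides into the endoplasmic reticulum, tapasin holds an empty class I molecule beside TAP, and the heavy chain then leaves for the surface with beta-2 microglobulin and a peptide. Interferon gamma is known to induce most of these genes together, and in the immunoproteasome Psmb8, Psmb9 and Psmb10 take the places of the catalytic subunits Psmb5, Psmb6 and Psmb7. Leukocytes hold immunoproteasomes without stimulation, and endothelial cells express class I strongly, which makes them visible to cytotoxic T cells.

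Class I promoters are known for a conserved group of elements: a kappa-B site, an interferon response element bound by interferon regulatory factors (IRF), and a module that ends in a cyclic AMP response element (CRE) and a Y box and through which Nlrc5 acts. RefSeq windows from 250 bases before to 50 bases after a gene's start (GRCm38.p6) were at hand for 8 of the 10 genes; Tap2 and Nlrc5 were not among them. Both strands were searched for AANNGAAA (IRF core), GGGANTNNC (kappa-B core), TGACG (CRE core) and ATTGG (Y box core), motifs that were chosen after the sequences had been read. The stretches below are shown because they hold these matches for the heavy and light chains and for the shared upstream region of Tap1 and Psmb9. They run 5′ to 3′ and end at the base before the gene's RefSeq start, with matches in capitals. The H2-K1 stretch is chr17:34000348-34000487 on the minus strand, H2-D1 is chr17:35262909-35263093 on the plus strand, B2m is chr2:122147527-122147686 on the plus strand, and the region between Psmb9 and Tap1 is chr17:34187331-34187555 on the plus strand.
H2-K1: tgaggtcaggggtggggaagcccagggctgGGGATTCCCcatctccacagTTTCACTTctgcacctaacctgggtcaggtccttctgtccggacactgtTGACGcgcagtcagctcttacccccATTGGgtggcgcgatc
H2-D1: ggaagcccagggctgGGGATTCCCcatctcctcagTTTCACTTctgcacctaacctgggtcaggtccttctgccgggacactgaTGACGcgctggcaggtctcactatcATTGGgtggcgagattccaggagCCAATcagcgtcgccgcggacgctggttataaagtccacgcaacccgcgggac
B2m: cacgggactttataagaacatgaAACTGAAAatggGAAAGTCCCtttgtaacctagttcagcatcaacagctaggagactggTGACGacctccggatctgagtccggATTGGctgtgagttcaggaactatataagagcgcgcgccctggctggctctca
Tap1-Psmb9: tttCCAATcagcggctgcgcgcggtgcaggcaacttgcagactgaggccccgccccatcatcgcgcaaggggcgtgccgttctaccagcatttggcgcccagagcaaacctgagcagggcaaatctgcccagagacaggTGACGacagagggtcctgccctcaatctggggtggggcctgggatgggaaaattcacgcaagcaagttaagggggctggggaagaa

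Windows of H2-K1, H2-D1 and B2m held all 4 kinds of motif, as did 0.268% of the 32851 windows in the RefSeq table. Singly the motifs were common, with the IRF core in 23.9%, the kappa-B core in 14.0%, the CRE core in 20.8% and the Y box core in 37.4% of windows. In all 3 genes the CRE core started 25 bases before the Y box. From the start of the kappa-B match to the end of the Y box, H2-K1 and H2-D1 were identical at 88 of 99 bases, and in both the kappa-B motif matched on either strand at the same place. In B2m the order of the first 2 elements was reversed, with the IRF core before the kappa-B core. Tap1 and Psmb9, which are transcribed in opposite directions with 225 bases between their starts, shared 1 CRE core and 1 Y box. Tapbp held Y boxes alone, and the windows of Psmb8 and Psmb10 held none of these letters. A match describes the letters in the window and no binding was measured here.

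Of the 10 genes, 7 lie on chromosome 17 of GRCm38, in or beside the mouse MHC. By GENCODE M21 these are Tapbp (33915899 to 33929292), H2-K1 (33996017 to 34000347), Psmb9 (34181987 to 34187764), Tap1 (34187553 to 34197225), Psmb8 (34197721 to 34201454), Tap2 (34203527 to 34216321) and H2-D1 (35262730 to 35267499). B2m lies on chromosome 2 (122147686 to 122153083), and Nlrc5 (94434356 to 94527272) and Psmb10 (105935735 to 105938444) lie on chromosome 8. The annotated gene bodies of Psmb9 and Tap1 overlap at their starts, on opposite strands, and the sources used here do not say whether the authors counted by strand. Of H2-D1's 100-base transcript windows, 4.64% were found in other genes as well, chiefly class I genes such as H2-Q1, so its share of such reads is uncertain.

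Values are FPKM, fragments scaled per kilobase of transcript and by the mapped total. Levels are set side by side between genes on that scale only. The longest annotated transcript ran from 860 bases for B2m to 7578 for Nlrc5. Whether reads of these amplified libraries covered transcripts evenly was not checked, so ranks and ratios between genes are uncertain. Low values fell on steps of single fragments that put the libraries at 33.6 to 47.35 M fragments (M for mega), and on this reading 3 fragments on a 2 kb transcript are 0.0342 to 0.0480 FPKM, counting error only. The labels give about 10 M reads, and the 2 were not reconciled. Normal Ms1608 stood apart: its correlation with the other libraries across the tested genes was 0.54 to 0.68, against 0.80 to 0.92 among the rest. The summed FPKM of 12 pan-leukocyte markers was 5099 to 6167 in MI libraries, against 1345, 1772 and 10663 in Normal libraries. That of 16 pan-endothelial markers was 296 to 1179 in MI libraries, against 1360, 957 and 41.7 in Normal libraries. Egfl7 made up most of the endothelial sum in every library but Normal Ms1608. Among the Normal libraries, Ms1608 was the lowest for 15 of the 16 endothelial markers. For the other 1, Pecam1, it was the highest of all 6 libraries, at 28.3 FPKM. None of these markers was at 0 in any library. Normal Ms1608 thus held few endothelial and many leukocyte transcripts for a Tie2-lineage sort of muscle. The labels place it in the Normal group, and whether its gate or its label was right cannot be checked from these values. Differences of the 10 genes are given with and without it. The part of this makeup in the results was not tested. In such bulk samples a change in the number of cells of a type and a change in RNA per cell cannot be told apart.

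Across all 10 genes, 0 passed limma's test of MI against Normal (limma on log2(FPKM + 1), mean-variance trend, Benjamini-Hochberg adjusted p at or under 0.05), with adjusted p-values of 0.292 to 0.899. Among all tested genes only 1 passed (0.00983%), the small RNA Gm24890, named after its values were seen, which was listed at 0 in every Normal library. At an unadjusted p under 0.05 there was 1 of the 10, Tapbp, where 16.1% of tested genes reached this level in the direction of MI. The median log2 difference of the 10 genes, MI minus Normal, was 0.56, below the 0.78 of all tested genes. On the deposited scale 9 of the 10 differences lay above 0, and 4, 2 and 5 of the 10 after scaling by median ratio, upper quartile and quantiles, which moved the median of all tested genes to 0.27, 0.20 and -0.05. Tapbp and Nlrc5 lay above that median and above 0 under each of these scalings, and Psmb9 lay below 0. The remaining 7 genes changed sign under at least 1 of the 3. Every MI library lay above every Normal library for 2 of the 10, B2m and Tapbp, a share below the 25% of all tested genes. Set against Normal Ms1535 and Ms1537 alone, every MI library was higher for 7 of the 10, where 52.6% of tested genes did the same. The exceptions were the 3 immunoproteasome subunits.

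**Figure D1:**
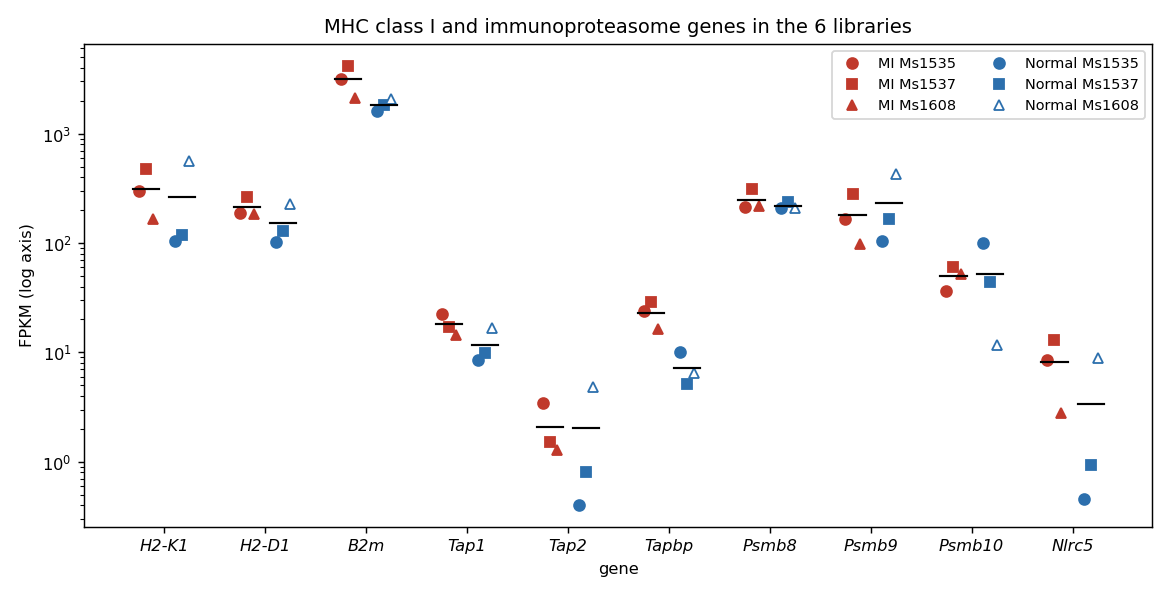
FPKM (log axis) of the 10 genes in each library, MI left of Normal, with a black bar at the mean of each group (n = 3) and an open triangle for Normal Ms1608. The groups overlap for every gene except B2m and Tapbp, and Normal Ms1608 lies above the other Normal libraries for 7 genes and far below them for Psmb10.

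B2m, the invariant light chain, was the most abundant of the 10 in every library, between percentile 99.4 and 99.8 of the tested genes. It had 3125, 4155 and 2133 FPKM in MI libraries, against 1597, 1807 and 2074 in Normal libraries. All MI values were above all Normal values, the closest pair being MI Ms1608 and Normal Ms1608. The MI mean was 3137 ± 1011 FPKM and the Normal mean 1826 ± 239 FPKM (SD, n = 3 each), and the log2 difference of 0.74 (SE 0.47) did not pass (limma adjusted p = 0.424), nor did 0.83 without Normal Ms1608 (limma adjusted p = 0.185). The size of this difference was close to that of the median tested gene.

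H2-K1 and H2-D1 encode the classical heavy chains, which bind the peptide and meet the T cell receptor. H2-K1 had 298, 473 and 167 FPKM in MI libraries, against 105, 118 and 566 in Normal libraries. The MI libraries were above 2 of the Normal libraries, and Normal Ms1608 was the highest of all 6, 5.08 times the mean of the other Normal libraries. H2-D1 had 188, 262 and 186 FPKM in MI libraries, against 101, 128 and 228 in Normal libraries. The order was alike, with Normal Ms1608 below MI Ms1537 here. The log2 differences were 0.58 (SE 0.78, limma adjusted p = 0.722) for H2-K1 and 0.54 (SE 0.60, limma adjusted p = 0.654) for H2-D1. Without Normal Ms1608 they were 1.36 for H2-K1 (limma adjusted p = 0.116) and 0.87 for H2-D1 (limma adjusted p = 0.171). Leaving out another library lowered them in places, for H2-K1 to 0.15 without Normal Ms1535, 0.23 without Normal Ms1537 and 0.22 without MI Ms1537, and for H2-D1 to 0.29 without Normal Ms1535.

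Relative to the light chain, H2-K1 stood at 0.0953, 0.114 and 0.0784 of the B2m level in MI libraries, against 0.0655, 0.0654 and 0.273 in Normal libraries. Normal Ms1608 held the highest share of H2-K1, and the other Normal libraries the lowest. The log2 ratio of H2-K1 to B2m, computed on FPKM + 1, was -3.39 ± 0.27 in MI and -3.24 ± 1.18 in Normal (SD, n = 3 each). The exact two-sided permutation test over libraries gave p = 1, and 3 libraries against 3 cannot go below p = 0.1. MI minus Normal, the log2 ratio differed by -0.16, and by 0.53 without Normal Ms1608, so that library decided the sign. For H2-D1 to B2m the log2 ratio was -3.85 ± 0.29 in MI and -3.65 ± 0.42 in Normal (SD, n = 3 each, exact two-sided permutation p = 0.5, adjusted p = 1 over the 6 ratios tested), a difference of -0.20 that was 0.0402 without Normal Ms1608.

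Tap1 and Tap2 encode the chains of the peptide transporter, which works only as a pair. Tap1 had 22.5, 17.0 and 14.5 FPKM in MI libraries, against 8.45, 9.82 and 16.6 in Normal libraries. Normal Ms1608 lay within the MI range and the other Normal libraries below it. Tap2 was listed far lower, with 3.45, 1.50 and 1.29 FPKM in MI libraries, against 0.405, 0.802 and 4.88 in Normal libraries. Again Normal Ms1608 was above the other Normal libraries, here 8.08 times their mean and above every MI library as well. The log2 differences were 0.62 (SE 0.65, limma adjusted p = 0.635) for Tap1 and 0.26 (SE 0.63, limma adjusted p = 0.857) for Tap2, and without Normal Ms1608 they were 0.89 for each (limma adjusted p = 0.208 and 0.196).

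In every library Tap1 was listed above Tap2, although their products pair. The ratio of FPKM was 6.52, 11.3 and 11.2 in MI libraries, against 20.9, 12.2 and 3.39 in Normal libraries. The Normal values spread to both sides of the MI values. The log2 ratio of FPKM + 1 was 2.67 ± 0.24 in MI and 2.30 ± 0.63 in Normal (SD, n = 3 each, exact two-sided permutation p = 0.5). The difference of 0.36 was 0.0013 without Normal Ms1608 and 0.59 without Normal Ms1535. It also moved with the pseudocount, to 0.065 at 0.1 and 0.43 at 5, Tap2 being under 1 FPKM in Normal Ms1535 and Ms1537. Its size therefore cannot be read apart from the pseudocount.

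Tapbp, which encodes tapasin, and Nlrc5 showed the 2 largest log2 differences of the 10 with all 6 libraries on log2(FPKM + 1). Tapbp was the larger there. Nlrc5 was the larger without Normal Ms1608, without MI Ms1608, with library weights, at a pseudocount of 0.1 and after median-ratio or upper-quartile scaling. At a pseudocount of 5, B2m (0.74) lay above Nlrc5 (0.70). Without Normal Ms1535, Psmb10 (1.06) lay above Nlrc5 (0.88). Tapbp had 23.9, 28.6 and 16.2 FPKM in MI libraries, against 9.99, 5.10 and 6.43 in Normal libraries. Every MI library was above every Normal library, and Normal Ms1608 lay between the other Normal libraries, unlike its place in the heavy chains and transporter. The MI mean was 22.9 ± 6.25 FPKM and the Normal mean 7.17 ± 2.53 FPKM (SD, n = 3 each), a ratio of 3.20. The log2 difference was 1.56 (SE 0.66, unadjusted p = 0.0396, limma adjusted p = 0.292), and it was 1.51 without Normal Ms1608 (limma adjusted p = 0.0970).

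**Figure D2:**
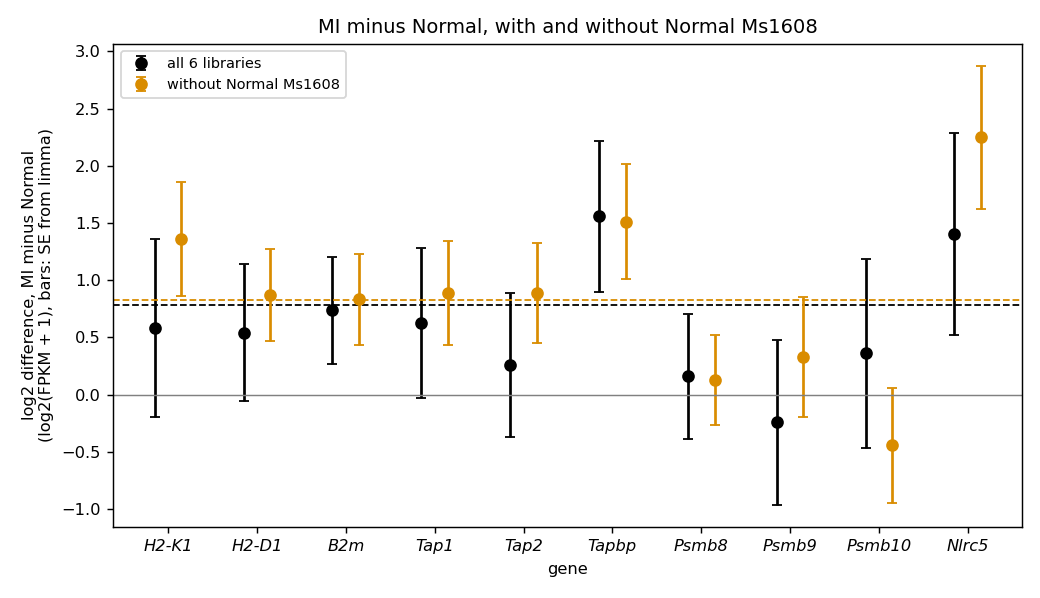
Log2 difference, MI minus Normal, of log2(FPKM + 1) with its SE from limma, for all 6 libraries (black) and without Normal Ms1608 (orange). Dashed lines mark the median of all tested genes, 0.78 and 0.83; Tapbp and Nlrc5 lie above both lines, and Psmb8, Psmb9 and Psmb10 below both.

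Psmb8, the chymotrypsin-like subunit, had 215, 314 and 218 FPKM in MI libraries, against 210, 239 and 209 in Normal libraries. These values were nearly level, with MI Ms1537 highest, and highest over lowest was 1.50, a span that only 0.177% of tested genes undercut. The log2 difference was 0.16 (SE 0.55, limma adjusted p = 0.899), and 0.13 without Normal Ms1608 (limma adjusted p = 0.818). Psmb8 was at this level in Normal Ms1608, with its leukocyte markers, and in the other Normal libraries, with their endothelial markers.

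Psmb9, the caspase-like position's replacement, had 164, 280 and 97.0 FPKM in MI libraries, against 103, 166 and 432 in Normal libraries. Normal Ms1608 was highest, and the remaining libraries of both groups were interspersed. It was the only gene of the 10 with a mean below Normal on the log scale (log2 difference -0.24, SE 0.72, limma adjusted p = 0.885). Without Normal Ms1608 the sign turned, to 0.33 (limma adjusted p = 0.650).

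Psmb10, which replaces the trypsin-like subunit, had 36.6, 60.6 and 51.9 FPKM in MI libraries, against 101, 43.6 and 11.6 in Normal libraries. Here the Normal libraries held both the highest and the lowest value, and Normal Ms1608 was the lowest. The log2 difference was 0.36 (SE 0.82, limma adjusted p = 0.846), and without Normal Ms1608 it was -0.44 (limma adjusted p = 0.525), so that library decided the sign. Relative to the other Normal libraries, Normal Ms1608 thus held 3.21 times as much Psmb9 and 0.161 times as much Psmb10.

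The constitutive subunits showed 0 of 3 calls (limma) and a median log2 difference of 0.25, and of 0.21 without Normal Ms1608. Psmb5 had 21.2, 39.9 and 23.6 FPKM in MI libraries, against 22.8, 12.3 and 38.3 in Normal libraries. Psmb6 had 242, 340 and 240 FPKM in MI libraries, against 325, 167 and 466 in Normal libraries. Psmb7 had 13.3, 22.7 and 17.7 FPKM in MI libraries, against 16.3, 17.8 and 10.7 in Normal libraries. For each of them the groups overlapped throughout.

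Per-library ratios set each inducible subunit against the one it replaces. Psmb8 to Psmb5 was 10.2, 7.87 and 9.21 in MI libraries, against 9.21, 19.5 and 5.46 in Normal libraries. Psmb9 to Psmb6 was 0.678, 0.823 and 0.405 in MI libraries, against 0.318, 0.993 and 0.927 in Normal libraries. Psmb10 to Psmb7 was 2.75, 2.66 and 2.92 in MI libraries, against 6.20, 2.45 and 1.09 in Normal libraries. In FPKM, Psmb8 and Psmb10 were thus listed above their counterparts in every library and Psmb9 below its own in every library. None of the ratios separated the groups. On the log2 scale (FPKM + 1) the differences, MI minus Normal, were -0.12 for Psmb8 to Psmb5, -0.12 for Psmb9 to Psmb6 and 0.12 for Psmb10 to Psmb7, with exact two-sided permutation p of 0.9, 0.8 and 0.7 (adjusted p = 1 for each). Without Normal Ms1608 these differences were -0.54, 0.12 and -0.48. The spread was wider among Normal libraries, with SDs of 0.17, 0.52 and 0.07 in MI and 0.88, 0.92 and 1.23 in Normal.

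**Figure D3:**
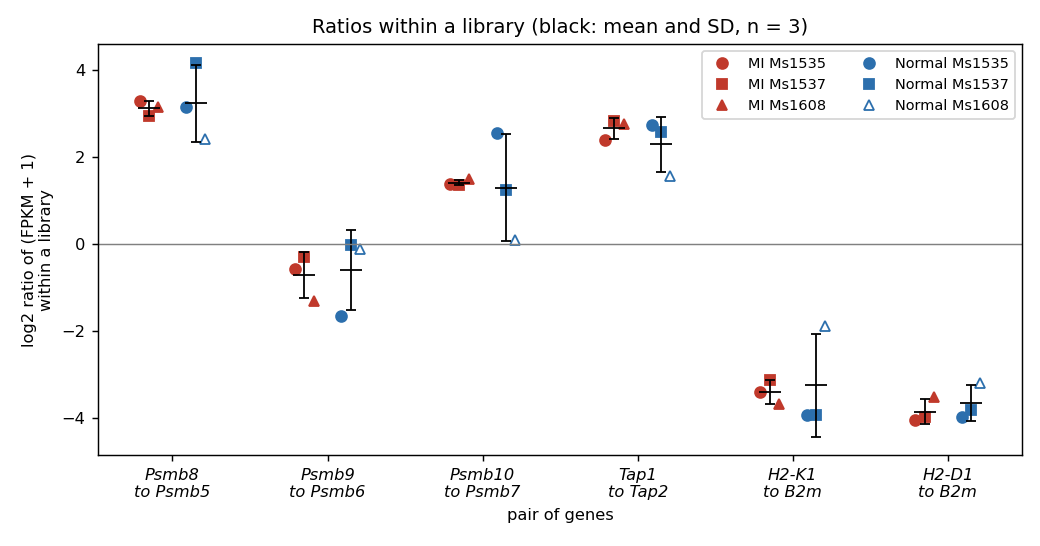
Log2 ratio of (FPKM + 1) of the gene pairs within each library, MI left of Normal, with the mean and SD in black (n = 3 each). The groups overlap in all 6 pairs; for Psmb10 to Psmb7 the MI libraries lie within an SD of 0.07 and the Normal libraries spread with an SD of 1.23.

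Nlrc5, the transactivator of class I genes, varied most, with highest over lowest at 28.3 against a median of 14.1 for tested genes and 4.93 for the 10. It had 8.57, 13.0 and 2.80 FPKM in MI libraries, against 0.461, 0.937 and 8.81 in Normal libraries. All MI libraries were above Normal Ms1535 and Ms1537, and Normal Ms1608 was 12.6 times the mean of those. The log2 difference was 1.40 (SE 0.88, limma adjusted p = 0.419), 2.25 without Normal Ms1608 (limma adjusted p = 0.0701) and 0.88 without Normal Ms1535. Leaving Normal Ms1608 out gave 0 calls among the 10 genes, while 4.51% of all tested genes were called. Weighting the libraries by limma's own estimate, which gave Normal Ms1608 a weight of 0.117 against 0.738 to 2.66 for the others, called 32.3% of all genes and 3 of the 10: Nlrc5 (2.29, limma adjusted p = 0.00846), Tapbp (1.63, limma adjusted p = 0.0188) and H2-K1 (1.33, limma adjusted p = 0.0292).

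Over the 6 libraries Nlrc5 went closely with the heavy chains (Pearson r of log2(FPKM + 1) 0.95 with H2-K1 and 0.95 with H2-D1), with Tap1 (0.91) and with B2m (0.85). It went less with Tapbp (0.58) and Psmb8 (0.41), and inversely with Psmb10 (-0.52). Psmb10 was lowest where Tap2 was highest (r = -0.88). These are descriptions over 6 libraries of 2 conditions that share the makeup given above. Among MI libraries Ms1537 was the highest for 8 of the 10 genes, and Normal Ms1535 was the lowest of all 6 libraries for 6 of the 10.

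Normal Ms1608 was above both other Normal libraries for 7 of the 10 genes, where 46.3% of tested genes were. Ptprc, which encodes CD45 of leukocytes, had 68.7, 77.9 and 75.9 FPKM in MI libraries, against 3.13, 4.72 and 174 in Normal libraries. Kdr, a VEGF receptor of endothelium, had 30.6, 63.1 and 11.9 FPKM in MI libraries, against 73.9, 44.6 and 0.486 in Normal libraries. Summed T cell markers were 239 to 428 FPKM in MI libraries, against 24.4, 64.6 and 382 in Normal libraries. Summed B cell markers were 504 to 892 in MI libraries, against 50.4, 48.7 and 1252 in Normal libraries. Summed NK cell markers, of which Prf1 was listed at 0 in Normal Ms1537, were 138, 1031 and 799 in MI libraries, against 77.2, 317 and 885 in Normal libraries. Gzma made up most of each NK sum. Among the Normal libraries, Ms1608 was the highest for 6 of the 8 tested NK markers. For the other 2, Klrk1 and Klrb1c, it was the lowest. H2-K1, H2-D1, B2m, Tap1, Tap2 and Nlrc5 were lower in Normal Ms1535 and Ms1537 than in every other library. The summed pan-leukocyte markers were lowest in those libraries too. Tapbp, Psmb8, Psmb9 and Psmb10 did not share this place. Among MI libraries the orders differed. MI Ms1537 had the lowest pan-leukocyte sum (5099 FPKM) and the highest H2-K1, H2-D1, B2m and Nlrc5. Tap1 and Tap2 were highest in MI Ms1535, where that sum was highest (6167 FPKM). Of these sums Srgn alone held 3893, 2722 and 3646 FPKM in MI libraries, so their order rested largely on 1 gene. Single leukocyte markers differed in order: Ptprc and Cd52 were highest in MI Ms1537, while Itgb2 and Lcp1 were lowest there. The part of leukocytes in the differences was not tested. Fibroblast markers summed to 6017, 6126 and 1181 FPKM in MI libraries, against 914, 1109 and 199 in Normal libraries.

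**Figure D4:**
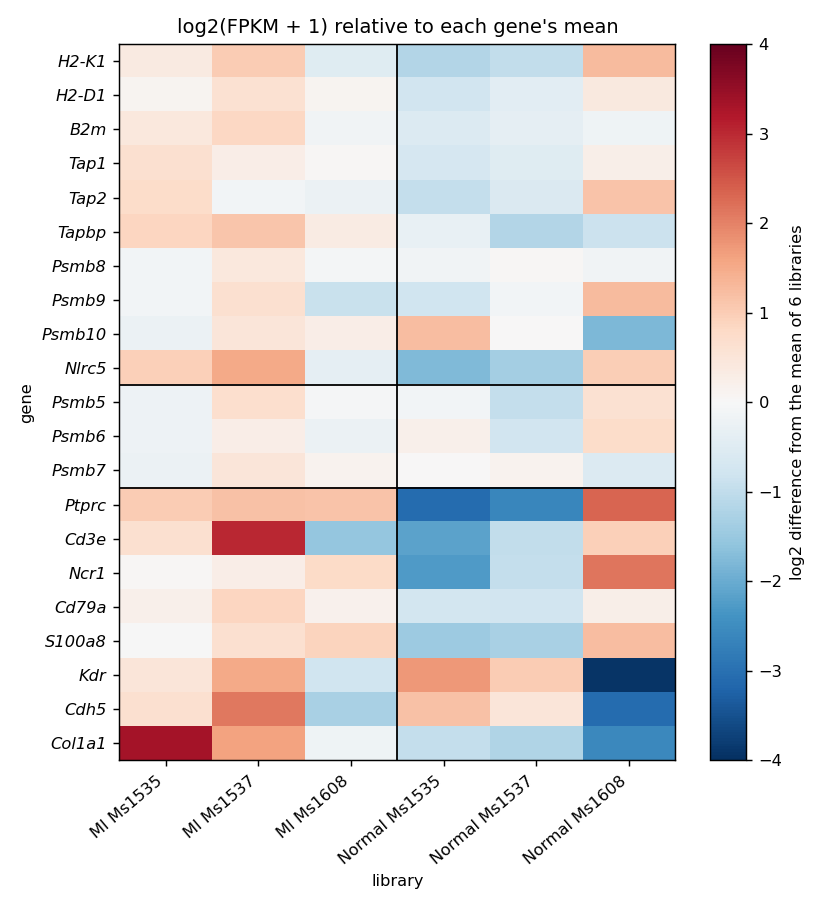
Log2(FPKM + 1) of each gene minus its mean over the 6 libraries (red above, blue below), MI columns left of Normal, for the 10 genes, their constitutive counterparts (middle block) and cell type markers (lower block). H2-K1, Tap2, Psmb9 and Nlrc5 are red in Normal Ms1608 together with Ptprc, while Psmb10 is blue there together with Kdr and Cdh5. Over all 10168 tested genes, Normal Ms1608 was the lowest Normal library for 4706 and the highest for 4703.

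Ranked by mean level in MI, the 10 genes ran B2m (3137 FPKM), H2-K1 (313), Psmb8 (249), H2-D1 (212), Psmb9 (180), Psmb10 (49.7), Tapbp (22.9), Tap1 (18.0), Nlrc5 (8.14) and Tap2 (2.08). In Normal the means ran B2m (1826 FPKM), H2-K1 (263), Psmb9 (234), Psmb8 (220), H2-D1 (152), Psmb10 (52.1), Tap1 (11.6), Tapbp (7.17), Nlrc5 (3.40) and Tap2 (2.03). That order rested on Normal Ms1608: without it the means were 225 FPKM for Psmb8, 135 for Psmb9, 115 for H2-D1, 111 for H2-K1 and 0.699 for Nlrc5. B2m stood clear of the rest, while H2-K1, Psmb8, H2-D1 and Psmb9 overlapped with their neighbours across libraries. Tap2 and Nlrc5 were at the low end, between percentiles 6.56 and 56.1 and between 7.40 and 64.4 of the tested genes.

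The wider machinery gave 0 calls in each list, with the same limma test. The 11 other subunits of the 20S core had a median log2 difference of 0.52, and 0.44 without Normal Ms1608. Psmb4, the most abundant, had 1010, 806 and 400 FPKM in MI libraries, against 495, 562 and 807 in Normal libraries. Psma3 had 221, 302 and 119 FPKM in MI libraries, against 136, 168 and 3.04 in Normal libraries, a low value in Normal Ms1608 that Psma7 (253, 236 and 141 FPKM in MI libraries, against 147, 152 and 482 in Normal libraries) did not share. Among the Normal libraries, Ms1608 was the lowest for 4 of these 11 subunits and the highest for 7.

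The proteasome activator PA28, whose alpha and beta subunits are also known to be interferon-inducible, had a median log2 difference of 0.10 over 3 genes, and 0.15 without Normal Ms1608. Psme1 had 376, 396 and 238 FPKM in MI libraries, against 370, 235 and 331 in Normal libraries (log2 difference 0.10, SE 0.56, limma adjusted p = 0.939). Psme2 had 268, 465 and 117 FPKM in MI libraries, against 274, 177 and 560 in Normal libraries (-0.30, SE 0.71, limma adjusted p = 0.852). Psme3, the nuclear PA28 gamma, had 21.1, 19.6 and 5.08 FPKM in MI libraries, against 5.80, 4.47 and 0.332 in Normal libraries (1.94, SE 0.87, limma adjusted p = 0.305), the largest difference of the 3. Like Psmb9, Psme2 was highest in Normal Ms1608 and lowest in MI Ms1608.

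The other peptide loading and trimming genes, 7 in number, had a median log2 difference of 1.00, and 1.11 without Normal Ms1608. Calr, the chaperone calreticulin of the loading complex, had 116, 64.6 and 46.1 FPKM in MI libraries, against 24.2, 25.6 and 25.8 in Normal libraries, with no overlap (1.44, SE 0.64, limma adjusted p = 0.304). Pdia3, the loading complex's thiol oxidoreductase, named after its values were seen, was the other of 2 in 7 with an unadjusted p under 0.05, a level that 16.1% of all tested genes reached (1.65, SE 0.66, limma adjusted p = 0.276). Canx, the chaperone calnexin, had 80.6, 46.8 and 33.4 FPKM in MI libraries, against 25.0, 35.5 and 66.2 in Normal libraries, with full overlap (0.36, SE 0.69, limma adjusted p = 0.815). Calr and Pdia3 were the 2 of these 7 with every MI library above every Normal library, where 25% of all tested genes were.

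Of 18 other class I and class I-like chains, 12 were tested, with a median log2 difference of 0.84, and 0.87 without Normal Ms1608. H2-T23, the non-classical Qa-1 chain, was at 534, 665 and 443 FPKM in MI libraries, against 430, 350 and 835 in Normal libraries (0.11, SE 0.56, limma adjusted p = 0.935). It was listed above H2-K1 in all 6 libraries. H2-Q7 had 34.6, 59.7 and 27.8 FPKM in MI libraries, against 7.40, 22.6 and 110.9 in Normal libraries, and its libraries stood in the same order as those of H2-K1. Class I genes share sequence, and the sources used here do not say how the authors divided shared reads.

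Regulators of class I genes gave a median log2 difference of 0.81 over 18 tested genes, and 1.24 without Normal Ms1608. Every MI library lay above Normal Ms1535 and Ms1537 for 16 of the 18, where 52.6% of all tested genes did, but above all 3 Normal libraries for 4 of the 18, where 25% did. Normal Ms1608 was above the other Normal libraries for 14 of the 18, against 46.3% of all tested genes. Ifng, the inducer, had 5.59, 68.5 and 18.1 FPKM in MI libraries, against 0.825, 23.3 and 33.2 in Normal libraries (0.84, SE 1.22, limma adjusted p = 0.745). Irf1, an interferon-induced transcription factor, had 27.7, 26.2 and 31.6 FPKM in MI libraries, against 19.7, 12.5 and 17.6 in Normal libraries, with no overlap (0.76, SE 0.63, limma adjusted p = 0.530). Ifng was highest in MI Ms1537 and Irf1 in MI Ms1608. An unadjusted p under 0.05 in the direction of MI was reached by 3 of the 18, a share near the 16.1% of all tested genes. They are named after their values were seen: Ciita, the class II transactivator (2.29, SE 0.69, limma adjusted p = 0.246), Rfxank, a subunit of the RFX factor (1.35, SE 0.47, limma adjusted p = 0.252), and Ifngr2, a chain of the interferon gamma receptor (1.65, SE 0.67, limma adjusted p = 0.280).

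Outside these lists, the tested genes most like the mean of the 10 standardised profiles over the 6 libraries were Rpl10 (Pearson r = 0.998), Atad1 (0.994), Sulf2 (0.991), Rab43 (0.990) and Jun (0.990). That mean profile was 0.44, 0.96 and -0.19 SD units in MI Ms1535, Ms1537 and Ms1608, against -0.82, -0.64 and 0.24 in Normal libraries. Rpl10, a ribosomal protein gene, had 297, 472 and 198 FPKM in MI libraries, against 122, 144 and 281 in Normal libraries, and so shared the order of the libraries with the mean of the 10. These genes were picked for the highest r among the tested genes over 6 libraries. High values and a like order follow from that choice and show no link to the 10.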

How the data were processed

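RNA from tdTomato+F4/80- cells was copied to cDNA and amplified with T7 polymerase, per the labels' protocols, a step that can add spread between libraries. The authors deposited FPKM values per gene, made with STAR 2.4.2a and Cufflinks 2.2.1 on GRCm38/mm10, per the submitters' processing notes. Genes at 1 FPKM or more in at least 3 of 6 libraries were tested with limma 3.58.1 (R 4.3.3) on log2(FPKM + 1), MI minus Normal, adjusting over all 10168 genes. The pseudocount understates changes of low genes. Ratios within a library were compared by exact permutation (scipy 1.17.1). The 10 genes, the lists and the tests were chosen with earlier results of these data known. Named genes were the 10, fixed controls and markers, called genes and the 4 most abundant of each other list, and the 5 genes most like the mean profile, with exceptions marked in the text. Positions came from GENCODE M21 and promoters from RefSeq (GRCm38.p6). Alternatives changed the scaling, pseudocount, filter, trend, weights and libraries.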

Additional observations from a re-analysis of the deposited data

How the results depend on the processing

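The log2 differences of the 10 genes were recomputed under 159 combinations of gene and setting. Of these, 132 kept their direction and side of the threshold, 24 changed sign and 3 became called. Changing the filter or the trend, or adding the replicate block, leaves a gene's log2 difference as it was. Those settings could change a call but not a sign, and they are counted among the 159. Tapbp and Nlrc5 kept their direction in 16 of 16, such settings included. Median-ratio scaling turned H2-K1 to -0.0501, H2-D1 to -0.0891, Tap2 to -0.0289, Psmb8 to -0.47 and Psmb10 to -0.27. Upper-quartile scaling turned H2-K1 to -0.16, H2-D1 to -0.20, B2m to -0.0100, Tap1 to -0.0691, Tap2 to -0.10, Psmb8 to -0.58 and Psmb10 to -0.38. Quantile scaling turned Tap1 to -0.0917, Tap2 to -0.50, Psmb8 to -0.13 and Psmb10 to -0.28. Library weights turned Psmb9 to 0.26 and Psmb10 to -0.47, and called 3288 genes, 3 of the 10 among them; the weights themselves favour the other libraries over Normal Ms1608.

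Leaving out 1 library at a time gave 0.15 to 1.36 for H2-K1, 0.29 to 0.87 for H2-D1, 0.51 to 0.99 for B2m, 0.44 to 0.89 for Tap1, 1.37 to 1.79 for Tapbp, 0.88 to 2.25 for Nlrc5, -0.14 to 0.89 for Tap2, -0.0175 to 0.25 for Psmb8, -0.70 to 0.33 for Psmb9 and -0.44 to 1.06 for Psmb10. The count of genes called ran from 1 to 459, the highest without Normal Ms1608, with 2 without MI Ms1537. The difference in log2 ratio ran from -0.54 to 0.34 for Psmb8 to Psmb5, -0.65 to 0.17 for Psmb9 to Psmb6, -0.48 to 0.74 for Psmb10 to Psmb7, 0.0013 to 0.59 for Tap1 to Tap2, -0.50 to 0.53 for H2-K1 to B2m and -0.36 to 0.0402 for H2-D1 to B2m. Tap2 fell below the filter of a mean of 5 FPKM.

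With the replicate block 1 gene and 0 of the 10 were called. Deviations of same-numbered libraries correlated at -0.05, 0.10 and 0.09, and not every library correlated best with its own number. With 3 libraries per group this check cannot show whether the numbers pair the samples. The main fit did not pair them. The causes of these dependencies were not tested.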
